A study of Mus musculus with 8 samples.

Results

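The comparison described here set cultured mouse astrocytes in which an oncogenic form of HER2 had been induced for 15 days against untransformed control astrocytes. It used 4 of the 8 libraries of the series, 2 in each group, chosen by their sample titles, and covered all 13607 genes measured. Both groups came from C57BL/6J mice with floxed alleles of Yap1 and of Taz (gene symbol Wwtr1), written Yapf/f;Tazf/f. Both were grown in DMEM-F12 with N-2 supplement, 20 ng/ml EGF and 20 ng/ml bFGF. The HER2CA day 15 cells had been transduced with lentiviruses for a doxycycline-inducible, constitutively active HER2 (HER2CA), for the activator rtTA and for CreERT2. They were grown with doxycycline, for which the labels give 1 µg/µL, and without 4OH-TAM, the ligand that activates CreERT2. The control cells were grown without doxycycline and are labelled untreated. The HER2CA libraries are labelled day 15, and the labels of the control libraries give no day. The RNA was sequenced as polyA libraries.

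Several points limit the groups as models. The labels name DMSO as part of the condition of HER2CA day 15, while the treatment protocol describes HER2CA cells without 4OH-TAM as left untreated. Whether the controls carried the lentiviral constructs, and which promoter or cell type drove them, is not stated in the labels. The oncogene and doxycycline were present in one group and absent in the other, so their effects cannot be told apart. The labels do not say that replicates A and B were separate cultures, so a p-value here reflects the spread of these libraries alone, and that spread may be technical. In bulk RNA, fewer cells of a type and less RNA per cell cannot be told apart.

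Astrocytes are glial cells that take up glutamate and potassium, store glycogen and supply neurons with lipids and metabolites. HER2, encoded by Erbb2, is a receptor tyrosine kinase of the EGF receptor family that signals through the RAS-ERK and PI3K-AKT pathways, usually as a partner of EGFR, HER3 or HER4. The integrated stress response is a pathway in which phosphorylation of the initiation factor eIF2α lowers general translation while the transcription factor ATF4 is made, and ATF4 then activates genes of amino acid supply.

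Levels are CPM, counts scaled to the size of the library with TMM factors, and each gene is given for replicates A and B in that order. Log2 fold changes are HER2CA day 15 minus control, and a gene was called at an adjusted p under 0.05 (edgeR quasi-likelihood, Benjamini-Hochberg over all genes). The 4 libraries held 21253566 to 28231426 counts, and Rn45s, the ribosomal RNA precursor, took 1.33% to 2.92% of them. The fit also held the other 4 libraries of the series, and in 1 of them, gliomasphere replicate B, Rn45s took 36.1% of counts. Without both gliomasphere libraries 10626 genes were called, against 10308. Every one of the 13607 genes reached 1 CPM in at least 2 of the 8 libraries, and genes below that were not analysed here. The names below include 189 genes with a difference of 2-fold or more. All of these passed the edgeR test, with adjusted p of 0.00703 or less and SE from 0.0663 to 0.743, and in all of them the libraries of the groups did not overlap. The p-values of single genes are therefore given only where the difference was smaller. Over all genes the libraries of the groups did not overlap in 88.2%. Genes taken for their relative change were also chosen among those that passed the test without overlap.

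Positions are in GRCm38. Among the engineered genes, Yap1 (chromosome 9, 7931999 to 8004596, minus strand) was at 144 and 136 CPM in controls and 101 and 103 CPM in HER2CA day 15 (log2 fold change −0.46, SE 0.0679, edgeR adjusted p = 1.78e-05). Wwtr1 (chromosome 3, 57455649 to 57575910, minus strand) was at 177 and 168 CPM in controls and 194 and 210.3 CPM in HER2CA day 15 (0.23, SE 0.068, edgeR adjusted p = 0.0063). Both calls were lost with no scaling factors (log2 fold change −0.51 and 0.18, edgeR adjusted p = 0.144 and 0.648). The Wwtr1 call was also lost with upper-quartile factors (0.331), without control replicate B (0.0523) and without HER2CA day 15 replicate B (0.0788, edgeR adjusted p throughout). Mouse Erbb2 (chromosome 11, 98412470 to 98437716, plus strand) was at 32.8 and 31.2 CPM in controls and 30.9 and 30.1 CPM in HER2CA day 15 (−0.07, SE 0.086, edgeR adjusted p = 0.462). Erbb2 passed the test as lower when upper-quartile factors were used (−0.23, edgeR adjusted p = 0.0256). From which species the HER2CA sequence came is not stated, so the Erbb2 counts need not include the transgene.

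The astrocyte label was checked against its markers. Of 17 measured astrocyte markers 16 were lower in HER2CA day 15 and 0 higher, and their summed level was 20479 and 24156 CPM in controls against 7184 and 8347 CPM. All 17 were still present in every library. The glutamate transporter Slc1a3 was at 1766 and 1916 CPM in controls and 1464 and 1509 CPM in HER2CA day 15 (−0.31, edgeR adjusted p = 0.0032; 0.34 with no scaling factors). The related transporter Slc1a2 fell further, from 385 and 402 CPM to 71.7 and 76.3 CPM (−2.41), and the water channel Aqp4 from 1205 and 1364 CPM to 212 and 218 CPM (−2.58). Markers of other cells are set beside all genes, of which 38.4% were lower and 37.3% higher. Of 14 microglial markers 10 were lower and 1 higher, with a summed level of 267 and 295 CPM in controls and 259 and 272 CPM in HER2CA day 15. Of 12 oligodendrocyte-lineage markers 10 were lower and 0 higher (572 and 624 against 160.4 and 153 CPM). Neuronal markers were higher in 2 and lower in 5 of 9 (365 and 368 against 142 and 152 CPM), and fibroblast and mural markers in 1 and 6 of 11 (556 and 494 against 424 and 423 CPM). Ependymal markers were higher in 2 and lower in 3 of 9, both below the shares over all genes (234 and 247 against 108 and 109 CPM). Endothelial markers were lower in 2 of 3 (13.6 and 13.7 against 3.48 and 3.14 CPM). Dcx, a marker of young neurons, was at 0 counts in both HER2CA day 15 libraries. The part of these other cells in the results below was not tested.

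Of all genes 75.8% differed, 37.3% higher and 38.4% lower in HER2CA day 15. At 2-fold or more 10.1% were higher and 19.5% lower, and the median log2 fold change was −0.02. Secreted factors and receptors were mostly lower. Of 354 measured secreted factors 75 were higher and 213 lower (median −0.86), and of 491 receptors, channels and adhesion molecules 76 were higher and 300 lower (−0.81). Transcription factors stayed near the background, 206 higher and 249 lower of 660 (−0.05). Metabolic genes were split, 378 higher and 298 lower of 855 (0.10), by pathway. Upper-quartile factors moved the median of all genes to −0.17 and the share of calls that were higher from 49.3% to 40.9%. With no scaling factors the numbers called fell to 87 and 151 transcription factors, 44 receptors higher, and 173 and 193 metabolic genes, higher and lower. Transcripts of low GC content were higher more often: the median log2 fold change ran from 0.21 in the fifth of genes with the lowest transcript GC to −0.31 in the fifth with the highest (Spearman correlation across genes −0.18). List medians were also taken with the median of genes of similar transcript GC subtracted. They went from 2.05 to 2.06 for cytosolic tRNA synthetases and from −1.25 to −1.23 for glycolytic enzymes. Some medians shrank, from −0.46 to −0.15 for SOX factors and from −0.85 to −0.58 for integrins. Others grew, as for fibroblast and mural markers, from −0.58 to −0.75. The part of GC content in the calls of single genes was not tested.

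**Figure D1:**
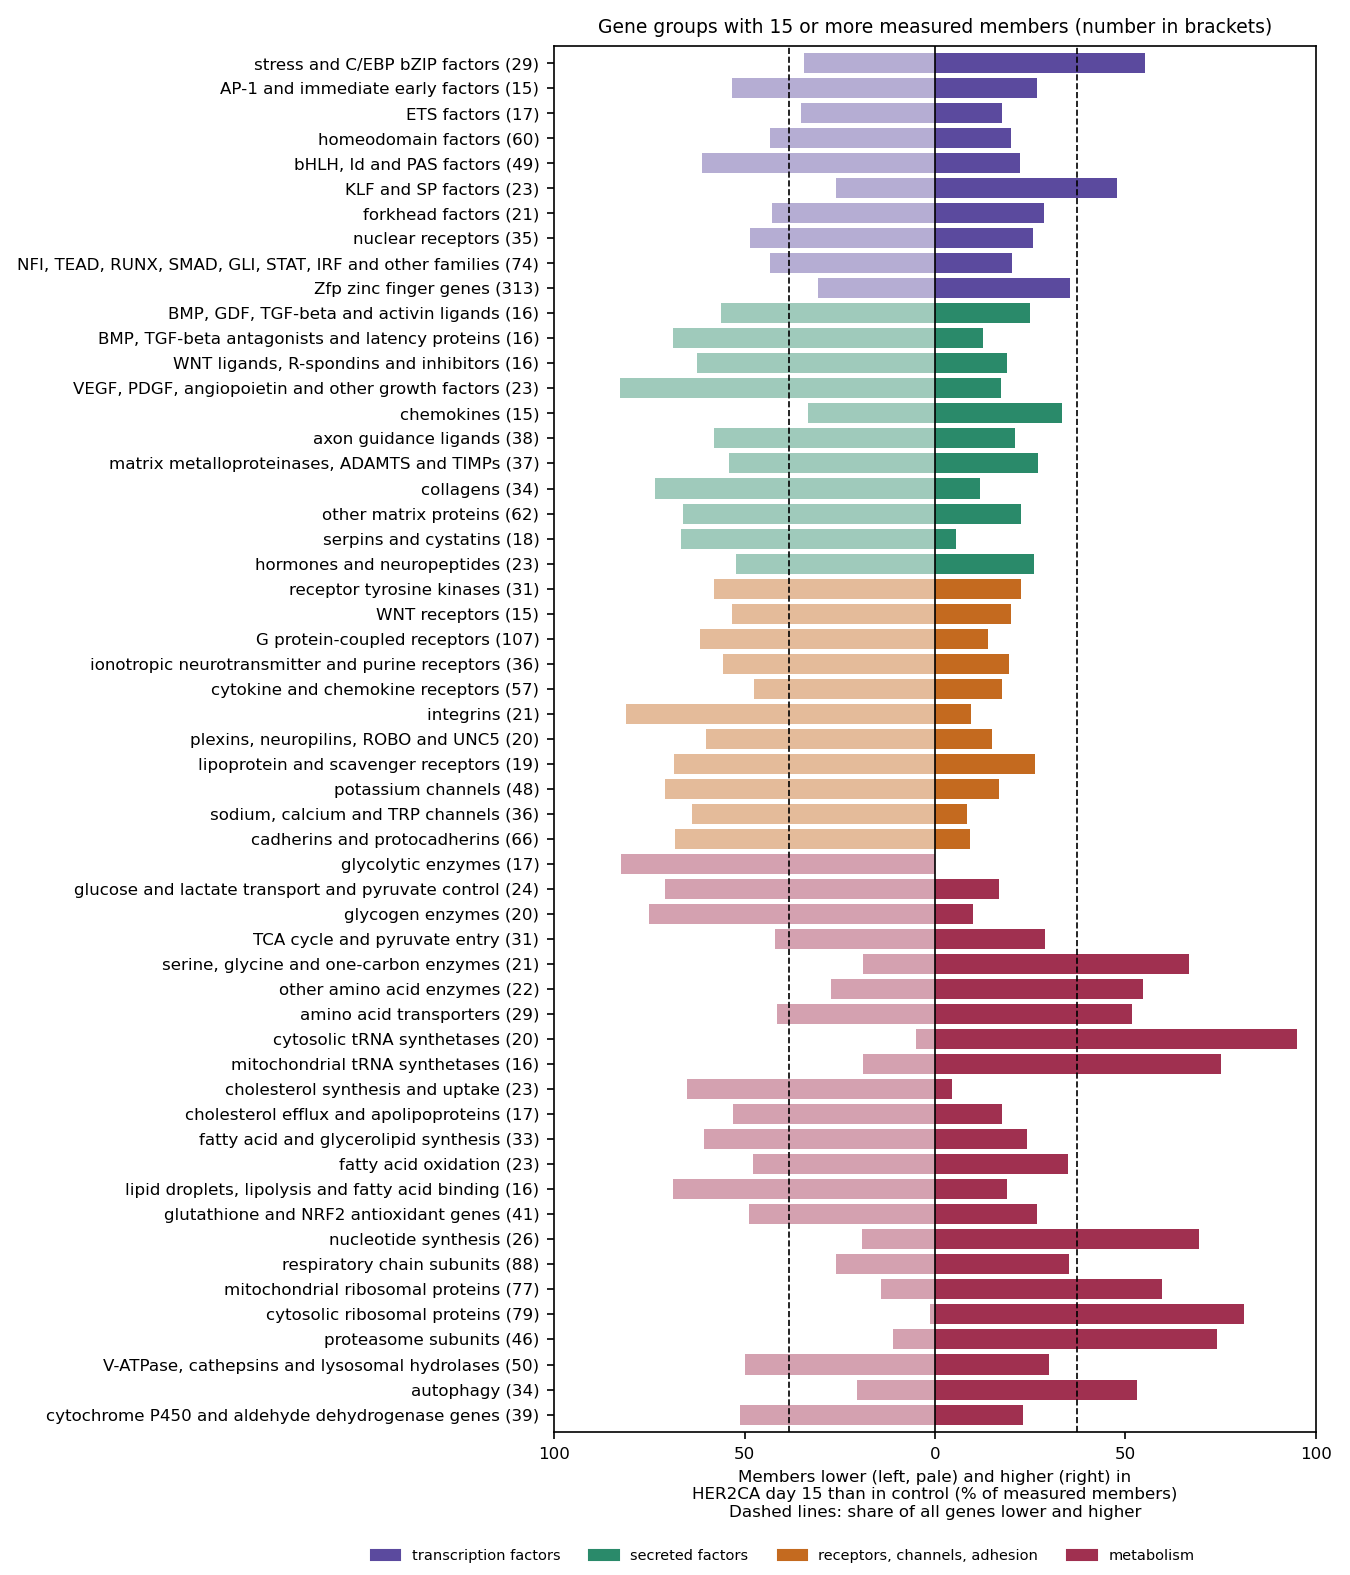
Share of the measured members of each gene group that were higher (right, solid) or lower (left, pale) in HER2CA day 15 than in control at an edgeR adjusted p under 0.05, for groups of transcription factors, secreted factors, receptors and metabolic genes with 15 or more measured members, the number measured in brackets; marker lists are not plotted. Dashed lines mark the shares over all genes, 37.3% higher and 38.4% lower. Cytosolic tRNA synthetases (95% higher) and ribosomal proteins (81%) reach farthest to the right of the groups plotted, and growth factors (82.6% lower), glycolytic enzymes (82.4%) and integrins (81%) farthest to the left.

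The transcription factors of the integrated stress response rose several-fold. Atf4, its central activator (chromosome 15, 80255184 to 80257541, plus strand), was at 88.1 and 79.5 CPM in controls and 771 and 842 CPM in HER2CA day 15 (log2 fold change 3.27, SE 0.0917). Atf5, an ATF4 target and activator of the mitochondrial stress response, was at 21.04 and 23.03 CPM in controls and 681 and 617 CPM in HER2CA day 15 (4.88, SE 0.133). Ddit3, which encodes the pro-apoptotic factor CHOP, was at 35.6 and 37.8 CPM in controls and 238 and 279 CPM in HER2CA day 15 (2.82). In all of these the HER2CA day 15 libraries lay far above both controls. Atf3, a stress-induced repressor, rose from 22.6 and 22.7 CPM to 125 and 147 CPM (2.59), and Cebpg, a dimer partner of ATF4, from 45.4 and 42.4 CPM to 183 and 186 CPM (2.07). Nupr1, a chromatin-associated stress protein, rose from 31.7 and 30.7 CPM to 610.2 and 584 CPM (4.26). Of the 30 measured genes listed for the response 24 were higher and 3 lower (median 2.54). A shorter list of this response was already known to be raised in these libraries, so the count is not independent evidence of its direction.

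The 3 lower members were an inhibitor of growth signalling and a pair of kinases upstream of ATF4. Ddit4, an inhibitor of mTORC1, fell from 185 and 179 CPM to 37.2 and 29.8 CPM (−2.45). Eif2ak3, which encodes the endoplasmic reticulum kinase PERK, was at 65.7 and 60.5 CPM in controls and 37.1 and 31.6 CPM in HER2CA day 15 (−0.88, edgeR adjusted p = 3.11e-07), and Eif2ak2, the double-stranded RNA sensor PKR, at 68.9 and 66.9 CPM in controls and 60.9 and 55.4 CPM in HER2CA day 15 (−0.23, 0.0253). The Eif2ak2 call was lost without either control replicate (edgeR adjusted p = 0.0904 and 0.0565), without HER2CA day 15 replicate B (0.201) and with no scaling factors (0.466). The other 2 kinases of eIF2α did not pass the test. Eif2ak4, the amino acid sensor GCN2, was at 30.8 and 27.5 CPM in controls and 26.7 and 29.2 CPM in HER2CA day 15 (−0.06, edgeR adjusted p = 0.558). Eif2ak1, the haem-regulated kinase HRI, was at 57.7 and 60.1 CPM in controls and 70.1 and 64.1 CPM in HER2CA day 15 (0.19, 0.0753). Eif2ak4 was lower by the test with upper-quartile factors (−0.22, edgeR adjusted p = 0.0436), and Eif2ak1 higher when only the 4 libraries compared were fitted (0.17, edgeR adjusted p = 0.0466). Among endoplasmic reticulum chaperones the response was smaller, with 11 of 20 higher and 4 lower (median 0.21). Atf6, a sensor of unfolded protein in that compartment, rose from 75.99 and 72.8 CPM to 422 and 379 CPM (2.43) and the chaperone Hspa5 from 549.9 and 537 CPM to 1286 and 1418 CPM (1.32). Xbp1, the effector of a parallel branch, was at 64.9 and 60.4 CPM in controls and 50 and 49.6 CPM in HER2CA day 15 (−0.33, edgeR adjusted p = 0.00465; 0.3 with no scaling factors).

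ATF4 and C/EBP factors bind a composite element whose core can be written TGATGNAA. That motif, searched on both strands in the RefSeq promoters of GRCm38.p6 (250 bases before to 50 after the start), was found for 279 of the 10339 measured genes with a promoter entry, or 2.7%. It was found for 135 of 3911 genes called higher (3.45%) and for 87 of 3929 called lower (2.21%). Among genes higher by 2-fold or more the share was 5.41% (57 of 1053), and among those lower by 2-fold or more 2.47% (48 of 1941). Cytosolic tRNA synthetases carried it in 5 of 12 cases (41.7%), genes of the integrated stress response in 8 of 27 (29.6%), other amino acid enzymes in 3 of 16 (18.8%) and amino acid transporters in 3 of 21 (14.3%). None of 18 serine, glycine and one-carbon genes and none of 17 glycolytic genes had it. A match is a description of the letters in this window and not a shown binding site.

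The windows below come from RefSeq (GRCm38.p6) and show 60 bases upstream of the start for raised genes with a match, namely stress genes, the cystine transporter Slc7a11, asparagine synthetase Asns, tRNA synthetases and the receptor Vldlr. Each is written 5′ to 3′ on the strand of its gene, with the motif, or its reverse complement, in capitals.
Atf3 chr1:191183410-191183469 minus strand: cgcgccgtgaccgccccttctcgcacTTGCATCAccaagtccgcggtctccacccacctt
Chac1 chr2:119351023-119351082 plus strand: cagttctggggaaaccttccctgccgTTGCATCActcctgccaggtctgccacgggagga
Nupr1 chr7:126625547-126625606 minus strand: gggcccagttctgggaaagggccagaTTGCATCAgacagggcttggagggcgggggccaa
Slc7a11 chr3:50443646-50443705 minus strand: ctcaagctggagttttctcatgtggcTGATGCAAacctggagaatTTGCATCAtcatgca
Asns chr6:7693210-7693269 minus strand: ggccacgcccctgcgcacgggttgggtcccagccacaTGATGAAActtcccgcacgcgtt
Aars chr8:111033704-111033763 plus strand: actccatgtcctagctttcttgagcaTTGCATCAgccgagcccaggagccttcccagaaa
Gars chr6:55037941-55038000 plus strand: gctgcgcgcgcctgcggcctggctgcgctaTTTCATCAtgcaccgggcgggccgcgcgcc
Vldlr chr19:27216794-27216853 plus strand: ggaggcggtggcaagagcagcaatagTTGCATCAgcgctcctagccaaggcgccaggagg
The first motif base lay 23 bases before the start in Asns, 30 in Gars, 66 in Slc7a11, 110 in Atf3 and Nupr1, 112 in Aars, 193 in Chac1 and 200 in Vldlr. The Slc7a11 window held 2 matches, 1 on each strand. Chac1, a glutathione-degrading enzyme, was at 1.88 and 1.44 CPM in controls and 67.6 and 70.4 CPM in HER2CA day 15 (5.37).

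Outside the stress response, the transcription factor with the largest relative rise was Sp8, a zinc finger factor of forebrain patterning and interneuron development (chromosome 12, 118846329 to 118852576, plus strand). It was at 1.23 and 1.11 CPM in controls and 80.8 and 88.5 CPM in HER2CA day 15 (log2 fold change 6.17, SE 0.136). Both controls were near 1 CPM and both HER2CA day 15 libraries above 80 CPM. Of 23 KLF and SP factors 11 were higher and 6 lower. Klf4, a pluripotency and growth-arrest factor, was at 29.6 and 26.6 CPM in controls and 218 and 212 CPM in HER2CA day 15 (2.94), and Klf10, a TGF-beta-inducible factor, rose from 66.3 and 70.5 CPM to 199 and 212 CPM (1.59). Myc, a driver of cell growth and translation, was at 20.3 and 21.1 CPM in controls and 102 and 108 CPM in HER2CA day 15 (2.34). Ets2, an ETS factor activated by ERK, rose from 40.2 and 40.9 CPM to 159 and 141 CPM (1.89).

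Of 12 measured neural stem and progenitor markers 11 were lower and 1, Sox2, higher (median −1.05), against 38.4% and 37.3% of all genes. Their summed level was 6766 and 7422 CPM in controls and 5133 and 5103 CPM in HER2CA day 15. Transcription factors of neural precursors moved in different directions. Sox2, which maintains neural stem cells and is also made by astrocytes, was already abundant at 421 and 412 CPM and was at 729 and 728 CPM in HER2CA day 15 (0.81, edgeR adjusted p = 1.26e-07). Its relative Sox21 rose from 36.9 and 40.2 CPM to 103 and 104 CPM (1.43). Hes6 fell from 34.7 and 44.7 CPM to 3.44 and 3.62 CPM (−3.48), and Nr2e1, a nuclear receptor of adult neural stem cells, from 39.5 and 39.8 CPM to 11.9 and 9.73 CPM (−1.88). Of 14 SOX factors 4 were higher and 8 lower. Sox10, Sox8 and Sox5, factors of the oligodendrocyte lineage, were among the lower ones, and Sox6 was among the higher ones. Sox10 went from 3.801 and 5.77 CPM to 0.0917 and 0.207 CPM (−4.87), Sox8 from 65.5 and 73.8 CPM to 15.03 and 17.5 CPM (−2.09), and Sox5 from 12.6 and 12.5 CPM to 1.33 and 1.83 CPM (−2.96).

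Several smaller rises had no shared family. Stat3, a mediator of cytokine signals, was at 143 and 148 CPM in controls and 260.4 and 263 CPM in HER2CA day 15 (0.85, edgeR adjusted p = 2.22e-08), and Clock, a core component of the circadian oscillator, at 121 and 108 CPM in controls and 254 and 255 CPM in HER2CA day 15 (1.15). The homeodomain gene Zfhx4 rose from 7.33 and 6.22 CPM to 25.8 and 25.4 CPM (1.91). Pparg, a lipid-responsive nuclear receptor, rose from 2.23 and 2.801 CPM to 6.55 and 6.52 CPM (1.38), and the forkhead factor Foxa1 from 4.69 and 4.28 CPM to 13.7 and 10.4 CPM (1.41). Both stayed at low levels. The 313 measured Zfp genes gave 111 higher and 96 lower, near the background, and this order turned with upper-quartile factors (86 higher, 121 lower) and with no scaling factors (39 and 46). Among them Zfp945 rose from 25.3 and 22.9 CPM to 129.5 and 104 CPM (2.27) and Zfp35 from 27.6 and 28.2 CPM to 99.4 and 113 CPM (1.93).

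The bHLH, Id and PAS group contained many of the lowered factors, 30 of 49 against 11 higher. Id3 and Id4, inhibitors of bHLH factors and common BMP targets, fell from 95.1 and 113 CPM to 11.3 and 13.5 CPM (−3.06) and from 38.9 and 42.6 CPM to 7.75 and 6.45 CPM (−2.53). Smad9, a BMP signal transducer, fell from 22.6 and 22.9 CPM to 6.28 and 4.38 CPM (−2.12). Mef2c, a MADS-box factor, fell from 94.8 and 89.1 CPM to 12.1 and 13.1 CPM (−2.87) and Six5, a homeodomain factor, from 32.95 and 27.9 CPM to 4.77 and 5.28 CPM (−2.59). In each of these genes both HER2CA day 15 libraries lay below both controls. Of 35 nuclear receptors 9 were higher and 17 lower. The mineralocorticoid receptor gene Nr3c2 fell from 20.4 and 21.4 CPM to 3.62 and 3.14 CPM (−2.64) and the thyroid hormone receptor gene Thrb from 26.7 and 28.6 CPM to 5.59 and 5.83 CPM (−2.27). Foxj1, the master factor of motile cilia, fell from 198 and 206 CPM to 72 and 72.6 CPM (−1.48). The gliogenic factor Nfia was at 253 and 258 CPM in controls and 155 and 152 CPM in HER2CA day 15 (−0.73, edgeR adjusted p = 0.00241), while Nfib was at 264 and 242 CPM in controls and 246 and 229 CPM in HER2CA day 15 (−0.09, edgeR adjusted p = 0.467), with overlapping groups.

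Immediate early and ETS factors, many of them responsive to ERK, had members in both directions. Of 15 AP-1 and immediate early factors 4 were higher (26.7%) and 8 lower (53.3%), against 37.3% and 38.4% of all genes. The higher ones were Nr4a2, Ier2, Nr4a3 and Fosl2. Of 17 ETS factors 3 were higher (17.6%) and 6 lower (35.3%), both below the shares over all genes. ERK feedback inhibitors and outputs were lower in 14 of 19 and higher in 1 (median −0.98). Fos, a subunit of AP-1, fell from 162 and 198 CPM to 37.99 and 32.8 CPM (−2.35). Maff, a small MAF factor from the list of stress and C/EBP bZIP factors, fell from 18.7 and 15.8 CPM to 2.704 and 2.17 CPM (−2.84). Etv4, an ETS factor induced by FGF and ERK signals, was at 52.6 and 55.1 CPM in controls and 6.33 and 7.24 CPM in HER2CA day 15 (−2.98). Its relative Etv5 was at 179.5 and 189 CPM in controls and 116 and 129 CPM in HER2CA day 15 (−0.58, edgeR adjusted p = 8.89e-06; 0.0661 with no scaling factors).

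**Figure D2:**
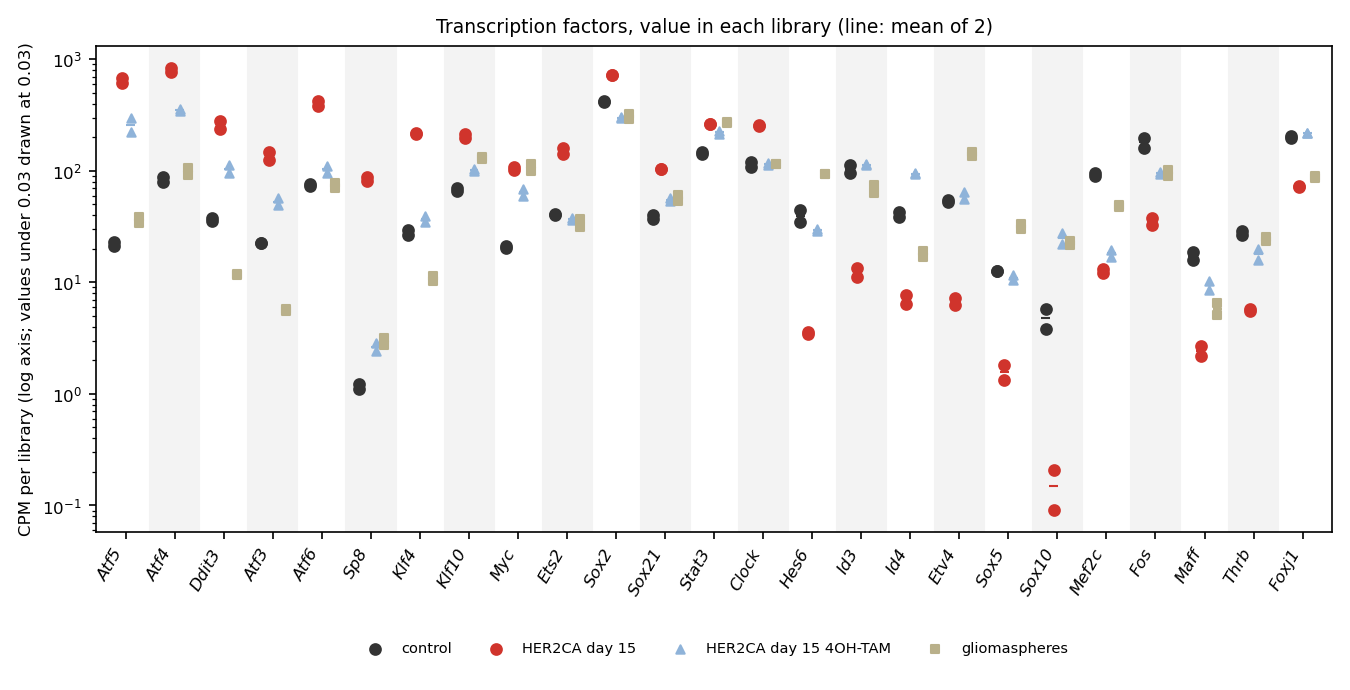
Level of 25 transcription factors in each library, in CPM on a log axis, with lines at the mean of the 2 libraries. The red HER2CA day 15 points lie above the black control points from Atf5 to Clock and below them from Hes6 to Foxj1; the 4OH-TAM and gliomasphere libraries are drawn beside them in pale colours.

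Some of the secreted factors that rose are ligands of the EGF receptor family, to which HER2 belongs. Of 8 measured EGF family ligands 5 were higher and 2 lower. Nrg1 and Nrg2 encode neuregulins, which bind HER3 and HER4. Nrg1 (chromosome 8, 31814551 to 32884029, minus strand) was at 5.61 and 4.94 CPM in controls and 34.6 and 41.8 CPM in HER2CA day 15 (2.86, SE 0.132), and Nrg2 at 4.38 and 4.86 CPM in controls and 36.7 and 38.1 CPM in HER2CA day 15 (3.02, SE 0.122). Hbegf, a ligand of EGFR and HER4, was at 156 and 153 CPM in controls and 322 and 427 CPM in HER2CA day 15 (1.28). Epiregulin, Ereg, rose from 0.998 and 0.494 CPM to 2.2 and 2.66 CPM (1.69), and betacellulin, Btc, was at 1.88 and 2.55 CPM in controls and 3.67 and 3.62 CPM in HER2CA day 15 (0.72, edgeR adjusted p = 0.0049). The EGFR ligand Tgfa instead fell from 32.5 and 35.6 CPM to 14.4 and 14.6 CPM (−1.23), Areg was at 1.57 and 0.989 CPM in controls and 0.825 and 0.621 CPM in HER2CA day 15 (−0.86, edgeR adjusted p = 0.036), and Egf was not called at 2.15 and 1.57 CPM in controls and 1.97 and 1.73 CPM in HER2CA day 15 (−0.02, edgeR adjusted p = 0.932). The calls of the scarce ligands were less stable. That of Btc was lost without control replicate A (0.50, edgeR adjusted p = 0.0777) and with no scaling factors (0.108), and that of Areg without control replicate A (−0.49, edgeR adjusted p = 0.324), without HER2CA day 15 replicate B (0.218), with no scaling factors (0.0749) and with DESeq2 (0.0821). Both HER2CA day 15 libraries lay above both controls for the neuregulins, Hbegf and Ereg.

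BMP, GDF, TGF-beta and activin ligands were mostly lower, 4 higher and 9 lower of 16 (median −0.84), as were BMP and TGF-beta antagonists and latency proteins, 2 higher and 11 lower of 16 (median −0.90). Some single secreted factors were under 1 CPM in controls and higher in HER2CA day 15. Ostn, which encodes the peptide osteocrin (chromosome 16, 27307489 to 27351212, plus strand), had 1375 counts in HER2CA day 15 against 1 count in controls, a ratio of 1360 (95% interval 244 to 53800, counting error only). Bmp3, an antagonistic BMP family member, was at 0.384 and 0.412 CPM in controls and 48.3 and 39.7 CPM in HER2CA day 15, and Grem1, a secreted BMP antagonist, at 0.346 and 0.165 CPM in controls and 19.7 and 19.3 CPM in HER2CA day 15 (6.21). Wnt11, a ligand of non-canonical WNT signalling, rose from 0.422 and 0.206 CPM to 6.74 and 4.69 CPM (4.13). The list of WNT ligands, R-spondins and inhibitors, which holds Wnt11, was mostly lower, 10 of 16 against 3 higher, with Wnt7a falling from 15.2 and 15.8 CPM to 1.19 and 1 CPM (−3.83). Of 9 neurotrophic factors 6 were higher and 1 lower. Gdnf, glial cell line-derived neurotrophic factor, rose from 0.269 and 0.206 CPM to 1.74 and 1.48 CPM (2.72). Bdnf, the ligand of the TrkB receptor, rose from 5.18 and 6.097 CPM to 17.8 and 22.01 CPM (1.83), and Clcf1, a ligand of the CNTF receptor, from 44.9 and 40.2 CPM to 94.9 and 138 CPM (1.45).

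Hormones and neuropeptides were mostly lower, 6 higher and 12 lower of 23 (median −1). Gdf15, a hormone of cell stress, was at 6.64 and 7.003 CPM in controls and 46.8 and 48.98 CPM in HER2CA day 15 (2.81), and Adm2, an adrenomedullin-like peptide, rose from 0.653 and 0.536 CPM to 9.95 and 9.73 CPM (4.03). Inhba, which encodes activin A, rose from 2.77 and 3.01 CPM to 13.4 and 14.5 CPM (2.28). The axon guidance ligands Slit1 and Sema3c were at 7.83 and 8.57 CPM in controls and 81.4 and 68.4 CPM in HER2CA day 15 (3.19) and at 27.8 and 23.4 CPM in controls and 134.4 and 130.1 CPM in HER2CA day 15 (2.37). Axon guidance ligands as a group were lower in 22 of 38 and higher in 8. Chemokines were split evenly, 5 higher and 5 lower of 15. The monocyte attractant Ccl2 rose from 0.0384 and 0.206 CPM to 0.596 and 0.552 CPM (2.21; 1.43 without control replicate A, edgeR adjusted p = 0.0616) and Ccl7 from 0.0768 and 0.0824 CPM to 0.458 and 0.345 CPM (2.24), while the transmembrane chemokine Cxcl16 fell from 4.38 and 4.202 CPM to 0.779 and 1.14 CPM (−2.12).

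Matrix genes moved in both directions. Tnc, which encodes tenascin-C, a matrix glycoprotein of development, injury and glioma, was at 425 and 417 CPM in controls and 1977 and 2181 CPM in HER2CA day 15 (2.31, SE 0.0837). The metalloproteinase inhibitor Timp3 rose from 253 and 262 CPM to 783 and 798 CPM (1.62), and Igfbp3, an IGF carrier, from 173 and 162 CPM to 630.5 and 700.5 CPM (1.99). Lama1, a laminin chain, rose from 0.346 and 0.7003 CPM to 11.3 and 13.3 CPM (4.57), Thsd4, a fibrillin-binding ADAMTS-like protein, from 0.806 and 1.15 CPM to 100.4 and 86.1 CPM, and Postn, periostin, from 1.34 and 1.15 CPM to 7.01 and 6.59 CPM (2.43). Most other matrix genes were lower. Collagens were lower in 25 of 34 and higher in 4 (median −1.14), and other matrix proteins lower in 41 of 62 and higher in 14. Col6a1 fell from 524 and 506 CPM to 99.1 and 107 CPM (−2.32), Col11a1 from 256 and 272 CPM to 49.96 and 59.95 CPM (−2.26), and Bcan, the brain proteoglycan brevican, from 164 and 189.5 CPM to 15.9 and 18.1 CPM (−3.38). The inhibitor Timp4 fell from 5.798 and 6.39 CPM to 0.183 and 0.138 CPM (−5.23).

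Vascular signals and growth factors were mostly lower. Of 23 VEGF, PDGF, angiopoietin and other growth factors 19 were lower and 4 higher (median −1.65). The vessel-destabilising ligand Angpt2 was at 19.9 and 24.5 CPM in controls and 0.321 and 0.207 CPM in HER2CA day 15, and the peptide ligand Apln at 28.5 and 26.2 CPM in controls and 1.42 and 0.655 CPM in HER2CA day 15 (−4.79). Vegfa, the main angiogenic factor, was at 726 and 694 CPM in controls and 386 and 376 CPM in HER2CA day 15 (−0.90, edgeR adjusted p = 4.49e-08). Fgf1, an FGF made by astrocytes and neurons, fell from 21.5 and 23.2 CPM to 0.458 and 0.586 CPM (−5.38). Agt, the angiotensin precursor, fell from 38.9 and 51.2 CPM to 0.825 and 1.73 CPM (−5.07), and A2m, a protease inhibitor of plasma and brain, from 11.5 and 15.4 CPM to 0.642 and 0.759 CPM (−4.23). The TGF-beta ligands Tgfb1 and Tgfb3 fell from 37.2 and 35.4 CPM to 9.85 and 11.3 CPM (−1.78) and from 49.3 and 49.8 CPM to 14.8 and 17.8 CPM (−1.60). Tgfb2 was at 155 and 152 CPM in controls and 74.7 and 79.3 CPM in HER2CA day 15 (−0.99, edgeR adjusted p = 2.81e-08), and Ctgf, a TGF-beta and YAP target, fell from 17.2 and 14.1 CPM to 1.05 and 1.24 CPM (−3.75). Large falls in absolute level were seen for Igfbp5, an IGF carrier, at 2263 and 2380 CPM in controls and 446 and 455 CPM in HER2CA day 15 (−2.37), for the secretory peptidase Cpe at 2740 and 2844 CPM in controls and 654 and 669 CPM in HER2CA day 15 (−2.08) and for the protease inhibitor Cst3 at 912 and 1018 CPM in controls and 149.5 and 169 CPM in HER2CA day 15 (−2.60).

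**Figure D3:**
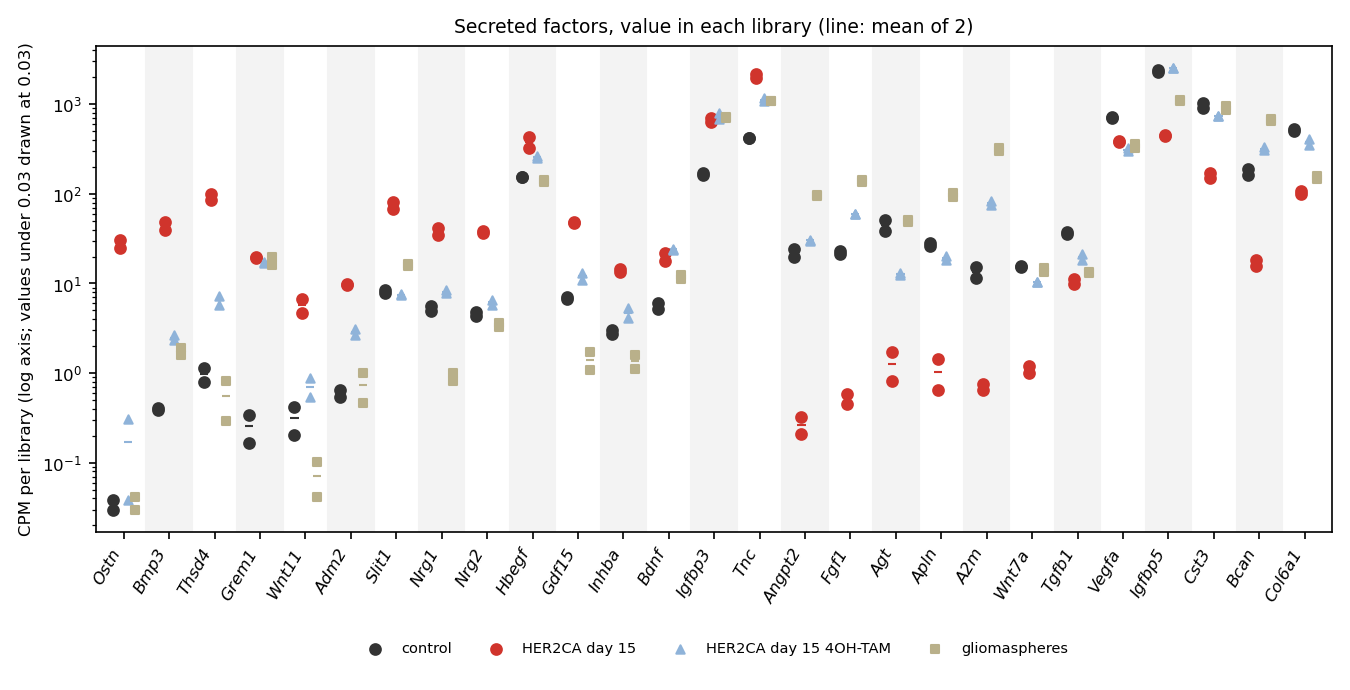
Level of 27 secreted factors in each library, in CPM on a log axis, with lines at the mean of the 2 libraries. HER2CA day 15 points lie above the control points from Ostn to Tnc and below them from Angpt2 to Col6a1, by more than an order of magnitude for genes such as Bmp3 (48.3 and 39.7 against 0.384 and 0.412 CPM) and Fgf1 (0.458 and 0.586 against 21.5 and 23.2 CPM).

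Receptors were mostly lower, and those of the EGF family did not move together. Erbb3, the neuregulin receptor HER3, fell from 5.84 and 5.11 CPM to 2.02 and 1.79 CPM (−1.53), and Egfr from 112 and 120.4 CPM to 52.3 and 59.2 CPM (−1.06). Erbb4, the neuregulin receptor HER4, was at 2.304 and 1.77 CPM in controls and 3.804 and 3.31 CPM in HER2CA day 15 (0.79, edgeR adjusted p = 0.00767). That call was lost without control replicate B (0.62, edgeR adjusted p = 0.0765) and with no scaling factors (0.0716). Of 31 receptor tyrosine kinases 7 were higher and 18 lower. The collagen receptors Ddr1 and Ddr2 moved in opposite directions. Ddr1 was at 889 and 1022 CPM in controls and 135 and 156 CPM in HER2CA day 15 (−2.71, SE 0.0939), and Ddr2 at 85.97 and 79.9 CPM in controls and 515 and 529 CPM in HER2CA day 15 (2.65, SE 0.0982). The insulin receptor Insr rose from 122 and 106 CPM to 362 and 402 CPM (1.75), the HGF receptor Met from 95.4 and 87.3 CPM to 191 and 196 CPM (1.08) and the WNT-binding receptor Ryk from 80.7 and 83.3 CPM to 187 and 179 CPM (1.16). Ntrk2, which encodes TrkB, was at 4774 and 4779 CPM in controls and 1034 and 1098 CPM in HER2CA day 15 (−2.16). The FGF receptor Fgfr3 fell from 135 and 142 CPM to 24.2 and 24.3 CPM (−2.52).

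Among other receptor classes, the cytokine receptors Il6ra and Il17ra rose from 9.91 and 10.1 CPM to 36.5 and 41.2 CPM (1.96) and from 9.25 and 9.19 CPM to 36.9 and 37.1 CPM (2.004). Lifr, a receptor subunit for LIF and CNTF-type cytokines, fell from 55.1 and 50.1 CPM to 11.8 and 12.3 CPM (−2.13). Of 57 cytokine and chemokine receptors 10 were higher and 27 lower. Of 10 ephrin receptors 4 were higher and 5 lower (median −0.19). Among the higher ones, Epha5 rose from 54.3 and 53.1 CPM to 183 and 206 CPM (1.86), and Epha3 from 0.384 and 0.659 CPM to 4.86 and 5.24 CPM (3.28). Notch genes were lower in 8 of 12, including Notch3 (83.4 and 84.3 CPM in controls and 23.97 and 24.6 CPM in HER2CA day 15; −1.79) and the ligand Dll1 (20.4 and 25 CPM in controls and 3.21 and 3.79 CPM in HER2CA day 15; −2.68). Notch2 was the 1 higher member, at 90.4 and 79.01 CPM in controls and 166 and 156 CPM in HER2CA day 15 (0.93, edgeR adjusted p = 8.95e-07). The WNT receptors Fzd2 and Fzd9 fell from 12.8 and 12.4 CPM to 1.65 and 1.48 CPM (−3.01) and from 42.1 and 47.8 CPM to 7.43 and 6.899 CPM (−2.65).

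G protein-coupled receptors were lower in 66 of 107 and higher in 15 (median −1.05). The PACAP receptor Adcyap1r1 was at 224 and 253 CPM in controls and 9.17 and 9.35 CPM in HER2CA day 15 (−4.69, SE 0.111), and the sphingosine 1-phosphate receptor S1pr3 fell from 272 and 317 CPM to 16.2 and 16.8 CPM. Sstr2, a somatostatin receptor, had the largest rise of the measured members of this class, from 3.34 and 2.84 CPM to 57.4 and 56.2 CPM (4.20). Ion channels were lower too, 34 of 48 potassium channels and 23 of 36 sodium, calcium and TRP channels, against 8 and 3 higher. Kcnj10, the glial potassium channel Kir4.1, was at 129 and 146 CPM in controls and 30.3 and 25.3 CPM in HER2CA day 15 (−2.31). Kcnt2, a sodium-activated potassium channel (chromosome 1, 140246158 to 140612067, plus strand), ran the other way, with 316 counts against 3 in controls, a ratio of 104 (95% interval 35.4 to 509). The acetylcholine receptor subunit Chrna4 had 3 counts against 256.

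Adhesion and lipoprotein receptors followed the same direction. Integrins were lower in 17 of 21 and higher in 2, among them the laminin receptor Itga7 at 434 and 456 CPM in controls and 192 and 221 CPM in HER2CA day 15 (−1.11). Cadherins and protocadherins were lower in 45 of 66 and higher in 6, the latter led by Pcdh11x, from 0.691 and 0.783 CPM to 20.2 and 18.4 CPM (4.70). Of 19 lipoprotein and scavenger receptors 5 were higher and 13 lower. The VLDL and reelin receptor Vldlr, whose promoter window with a motif match is printed above, rose from 109.7 and 101 CPM to 323 and 284 CPM (1.53). The sorting receptor Sorl1 fell from 143 and 131 CPM to 16.9 and 18.04 CPM (−2.97).

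**Figure D4:**
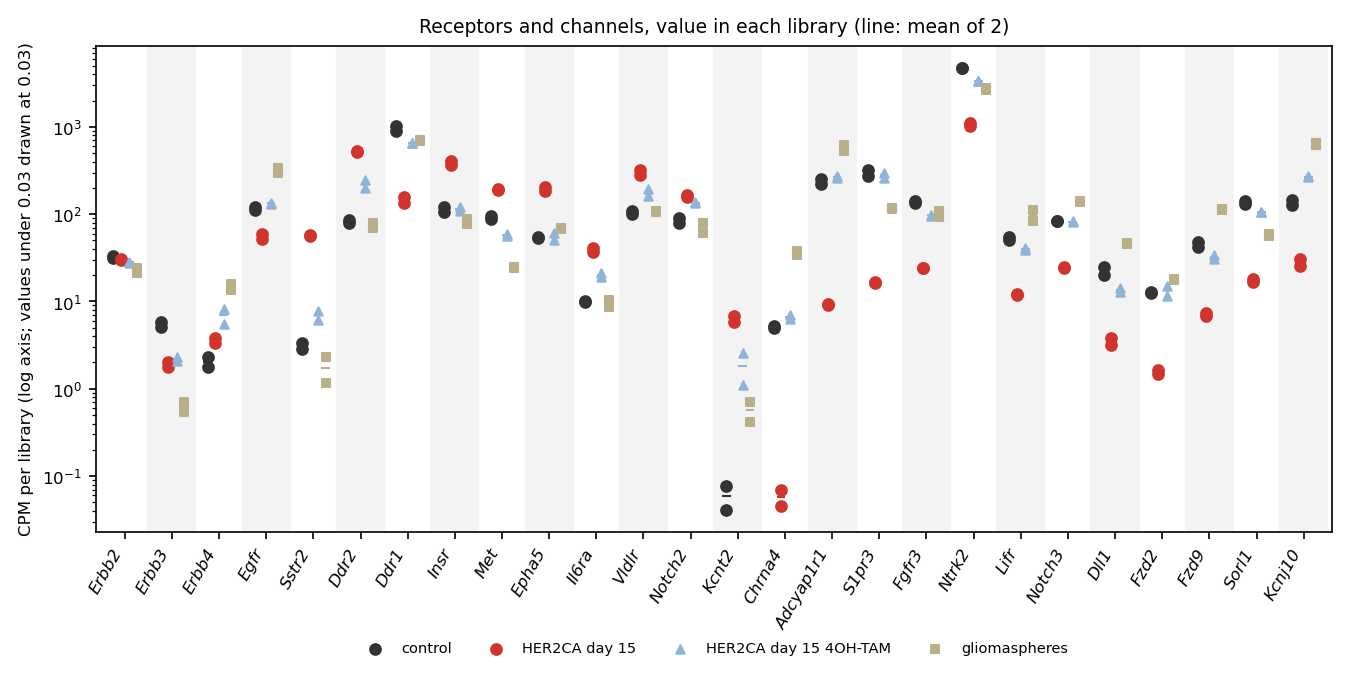
Level of 26 receptors and channels in each library, in CPM on a log axis, with lines at the mean of the 2 libraries. Erbb2 points of control and HER2CA day 15 lie together near 31 CPM, Ddr1 is lower and Ddr2 higher in HER2CA day 15, and most receptors at the right are lower in HER2CA day 15.

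Genes of amino acid supply and tRNA charging were mostly higher. Of 20 cytosolic aminoacyl-tRNA synthetases, the enzymes that load tRNAs, 19 were higher and 1 lower (median 2.05), and their summed level went from 2189 and 2270 CPM to 9167 and 9262 CPM. The alanine enzyme Aars was at 206 and 228 CPM in controls and 1279 and 1395 CPM in HER2CA day 15 (2.63, SE 0.1) and the asparagine enzyme Nars at 176 and 181 CPM in controls and 1196 and 1154 CPM in HER2CA day 15 (2.72, SE 0.0867). Eprs, for glutamate and proline, rose from 245 and 229.5 CPM to 1322 and 1321 CPM (2.48), and Wars, for tryptophan, from 71.3 and 79.7 CPM to 555 and 577 CPM (2.91). Iars, for isoleucine, rose from 103 and 93.7 CPM to 570.3 and 572 CPM (2.54), and Gars, for glycine, from 88.6 and 91.2 CPM to 478 and 473 CPM (2.40). The exception was the glutamine enzyme Qars at 109.6 and 112 CPM in controls and 86.8 and 83.4 CPM in HER2CA day 15 (−0.38, edgeR adjusted p = 0.000417; 0.23 with no scaling factors). Mitochondrial synthetases were higher in 12 and lower in 3 of 16, with a smaller median of 0.38. With no scaling factors 15 cytosolic and 4 mitochondrial synthetases were higher.

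Enzymes of serine, glycine and one-carbon metabolism were higher in 14 and lower in 4 of 21. Psat1, of serine synthesis, was at 81.6 and 83.7 CPM in controls and 474 and 454 CPM in HER2CA day 15 (2.49), and Phgdh, the first enzyme of that pathway, rose from 63.9 and 83.04 CPM to 180.5 and 167 CPM (1.24). A set of 3 mitochondrial folate enzymes rose. Shmt2 rose from 55.1 and 67.6 CPM to 299 and 318 CPM (2.33), Mthfd2 from 7.56 and 6.39 CPM to 113 and 115 CPM (4.03), and Aldh1l2 from 38.9 and 44.5 CPM to 309.9 and 304 CPM (2.88). Aldh1l1, the cytosolic relative of Aldh1l2 and an astrocyte marker, fell from 348 and 404 CPM to 31.9 and 43.98 CPM (−3.30). The libraries of the groups did not overlap for either relative.

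Other amino acid enzymes were higher in 12 and lower in 6 of 22. Asns, asparagine synthetase, was at 22.4 and 24.4 CPM in controls and 399 and 409.8 CPM in HER2CA day 15 (4.11, SE 0.115), and Bcat1, the cytosolic branched-chain aminotransferase, at 0.538 and 0.412 CPM in controls and 22.7 and 22.3 CPM in HER2CA day 15 (5.54, SE 0.222). Pck2, the mitochondrial PEP carboxykinase, rose from 21.04 and 23.9 CPM to 188 and 207 CPM (3.14), and Cth, which makes cysteine from cystathionine, from 1.42 and 0.742 CPM to 14.1 and 15.6 CPM (3.76). Got1, an aspartate aminotransferase, and Pycr1, of proline synthesis, rose from 29.5 and 33.5 CPM to 90.2 and 97.5 CPM (1.58) and from 12.5 and 13.5 CPM to 27.7 and 29.4 CPM (1.14). Glutamine synthetase Glul, an astrocyte enzyme, was at 219 and 250.1 CPM in controls and 194 and 200.2 CPM in HER2CA day 15 (−0.25, edgeR adjusted p = 0.0136). That call was lost without control replicate B (−0.15, edgeR adjusted p = 0.174), without HER2CA day 15 replicate A (0.0804) and with no scaling factors (0.418).

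Amino acid transporters were split, 15 higher and 12 lower of 29. The cationic transporter Slc7a1 was at 35.9 and 33.2 CPM in controls and 568 and 582 CPM in HER2CA day 15 (4.06) and its relative Slc7a3 at 0.499 and 0.742 CPM in controls and 20.99 and 20.5 CPM in HER2CA day 15 (5.06). The cystine-glutamate exchanger Slc7a11 rose from 3.99 and 4.08 CPM to 49.5 and 39.3 CPM (3.45), the leucine transporter Slc7a5 from 66.1 and 77.6 CPM to 432 and 455 CPM (2.63) and its heavy chain Slc3a2 from 362 and 363 CPM to 855 and 918 CPM (1.29). The glycine transporter Slc6a9 rose from 33.3 and 35.4 CPM to 236 and 239.7 CPM (2.79). The glutamate transporters Slc1a2 and Slc1a3, given above, were among the lower ones.

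Genes of protein synthesis and turnover were also higher more often than lower. Cytosolic ribosomal proteins were higher in 64 and lower in 1 of 79 (median 0.61), with 31 higher and 0 lower when no scaling factors were used. Ribosomal protein genes have near-identical pseudogenes, and how the authors' counting treated their reads is not known. Mitochondrial ribosomal proteins were higher in 46 and lower in 11 of 77, and proteasome subunits in 34 and 5 of 46 (11 and 4 with no scaling factors). Psmb8 and Psmb10, subunits of the immunoproteasome, were among the lower ones, at 5.11 and 6.01 CPM in controls and 1.05 and 1.104 CPM in HER2CA day 15 (−2.35) and at 9.68 and 12.2 CPM in controls and 4.26 and 5.49 CPM in HER2CA day 15 (−1.15). The initiation factor subunits Eif3a and Eif3c rose from 521 and 496 CPM to 1425 and 1449 CPM (1.499) and from 331 and 353 CPM to 1268 and 1305 CPM (1.91). Hspa9, the mitochondrial HSP70 chaperone, had the largest rise in absolute level among genes other than ribosomal RNA and clone-named models. It was at 758 and 730.1 CPM in controls and 2944 and 3075 CPM in HER2CA day 15 (2.02, SE 0.0852). The mitochondrial protease Lonp1 rose from 126 and 126 CPM to 761 and 768 CPM (2.61).

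Respiratory chain subunits stayed near the background, 31 higher and 23 lower of 88, an order that turned with upper-quartile factors (15 and 36) and with no scaling factors (5 and 10). A pair of tissue-specific isoforms of cytochrome oxidase moved in opposite directions. Cox6a2, an isoform of heart and skeletal muscle, had 147 counts in HER2CA day 15 against 0 in controls, at least 48.5-fold higher with 3 counts over the control group as the floor. Cox6b2, an isoform best known from testis, fell from 40.8 and 49.7 CPM to 1.47 and 3.07 CPM (−4.26). Ppargc1a, the coactivator PGC-1α of mitochondrial biogenesis, fell from 87.4 and 81.6 CPM to 13.7 and 14.9 CPM (−2.56). Nucleotide synthesis genes were higher in 18 and lower in 5 of 26 (7 and 4 with no scaling factors). Tyms, thymidylate synthase, rose from 1.96 and 1.81 CPM to 6.46 and 5.38 CPM (1.64), while the ribonucleotide reductase subunit Rrm2 was at 11.5 and 13.5 CPM in controls and 6.65 and 6.11 CPM in HER2CA day 15 (−0.97, edgeR adjusted p = 2.07e-06).

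Genes of glycolysis, of glucose and lactate transport and of glycogen were mostly lower. Pentose phosphate genes were even, 4 higher and 4 lower of 8 (median 0). TCA cycle and pyruvate entry genes were higher in 9 and lower in 13 of 31 (median −0.09). Glycolytic enzymes were lower in 14 of 17 and higher in 0, a direction already known for these libraries. Gpi1 and Gapdh were among the largest falls in absolute level, at 2886 and 3319 CPM in controls and 430.2 and 447 CPM in HER2CA day 15 (−2.82) and at 2294 and 2738 CPM in controls and 514 and 494 CPM in HER2CA day 15 (−2.32), and Ldha, lactate dehydrogenase A, was at 865 and 968 CPM in controls and 269 and 248 CPM in HER2CA day 15 (−1.83). The lactate exporter Slc16a3 fell from 48.2 and 46.8 CPM to 3.62 and 4.62 CPM (−3.51) and Pdk1, which restrains pyruvate entry into mitochondria, from 126 and 112 CPM to 45.3 and 50.7 CPM (−1.31). The core ACGTG of the hypoxia response element, searched on both strands, was in the promoter window of 10 of 17 glycolytic genes (58.8%), against 28.6% of all measured genes with an entry. It was also in 6 of 12 cytosolic tRNA synthetases (50%), which were mostly higher, in 31.5% of all genes called higher and in 23.9% of genes lower by 2-fold or more. The same letters form part of other elements. Glycogen genes were lower in 15 of 20 and higher in 2. Phkg1, a catalytic subunit of phosphorylase kinase, fell from 13.6 and 13.9 CPM to 1.05 and 0.931 CPM (−3.79), the glycogen-targeting phosphatase subunit Ppp1r3c from 261 and 268 CPM to 37.4 and 35.98 CPM (−2.85), and brain glycogen phosphorylase Pygb from 418 and 489 CPM to 121 and 129.7 CPM (−1.86). Stbd1, which tethers glycogen for autophagy, rose from 8.72 and 7.42 CPM to 52.4 and 48.9 CPM (2.65).

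Lipid genes were lower in most groups. Fatty acid and glycerolipid synthesis genes were lower in 20 of 33 and higher in 8, and cholesterol synthesis and uptake genes in 15 and 1 of 23. The desaturase Scd2 was at 2987 and 3221 CPM in controls and 895 and 895 CPM in HER2CA day 15 (−1.79) and the apolipoprotein Apoe at 10169 and 12204 CPM in controls and 3379 and 4365 CPM in HER2CA day 15 (−1.53). Insig1, a regulator of sterol synthesis, fell from 96.8 and 85.1 CPM to 20.2 and 21.01 CPM (−2.14). The monoglyceride lipase Mgll fell from 112 and 136 CPM to 15.5 and 16.2 CPM (−2.96), the phospholipase Pla2g7 from 103 and 122 CPM to 15.6 and 20.7 CPM (−2.62) and the lipid droplet protein Plin4 from 136 and 131 CPM to 21.5 and 19.9 CPM (−2.70). Fads3, a member of the fatty acid desaturase family, rose instead from 17.1 and 17.4 CPM to 117 and 131 CPM (2.85).

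A pair of prostaglandin genes moved in opposite directions. Ptgs2, inducible cyclooxygenase 2, was at 2.07 and 1.52 CPM in controls and 87.6 and 86.9 CPM in HER2CA day 15 (5.59, SE 0.136), whereas Ptgds, prostaglandin D synthase, fell from 32.95 and 38.3 CPM to 4.26 and 5.52 CPM (−2.85). The cytochrome P450 gene Cyp4b1 (chromosome 4, 115624725 to 115647723, minus strand) rose from 0.0768 and 0.165 CPM to 77.3 and 56.3 CPM, and Cyp1b1, an aryl hydrocarbon receptor target, rose from 17.2 and 17.8 CPM to 127 and 96.4 CPM (2.67). Of 41 glutathione and NRF2 antioxidant genes 11 were higher and 20 lower. Hmox1, haem oxygenase 1, rose from 115 and 127 CPM to 513 and 412 CPM (1.93) and Gclc, the rate-limiting enzyme of glutathione synthesis, from 98.95 and 90.95 CPM to 282 and 233 CPM (1.44). The glutathione transferase Gstm1 fell from 1074 and 1120 CPM to 314 and 380.1 CPM (−1.66). The metalloreductases Steap1 and Steap3 moved in opposite directions, from 1.69 and 1.32 CPM to 24.8 and 23.2 CPM (3.99) and from 26.5 and 30.2 CPM to 3.62 and 2.28 CPM (−3.30). Gamt, which makes creatine, fell from 8.22 and 11.3 CPM to 0.779 and 0.793 CPM (−3.62), and the hexosamine enzyme Gfpt2 and the hyaluronan synthase Has2 from 19.9 and 23.6 CPM to 3.21 and 3.83 CPM (−2.61) and from 18.7 and 22.6 CPM to 5.91 and 6.899 CPM (−1.68).

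**Figure D5:**
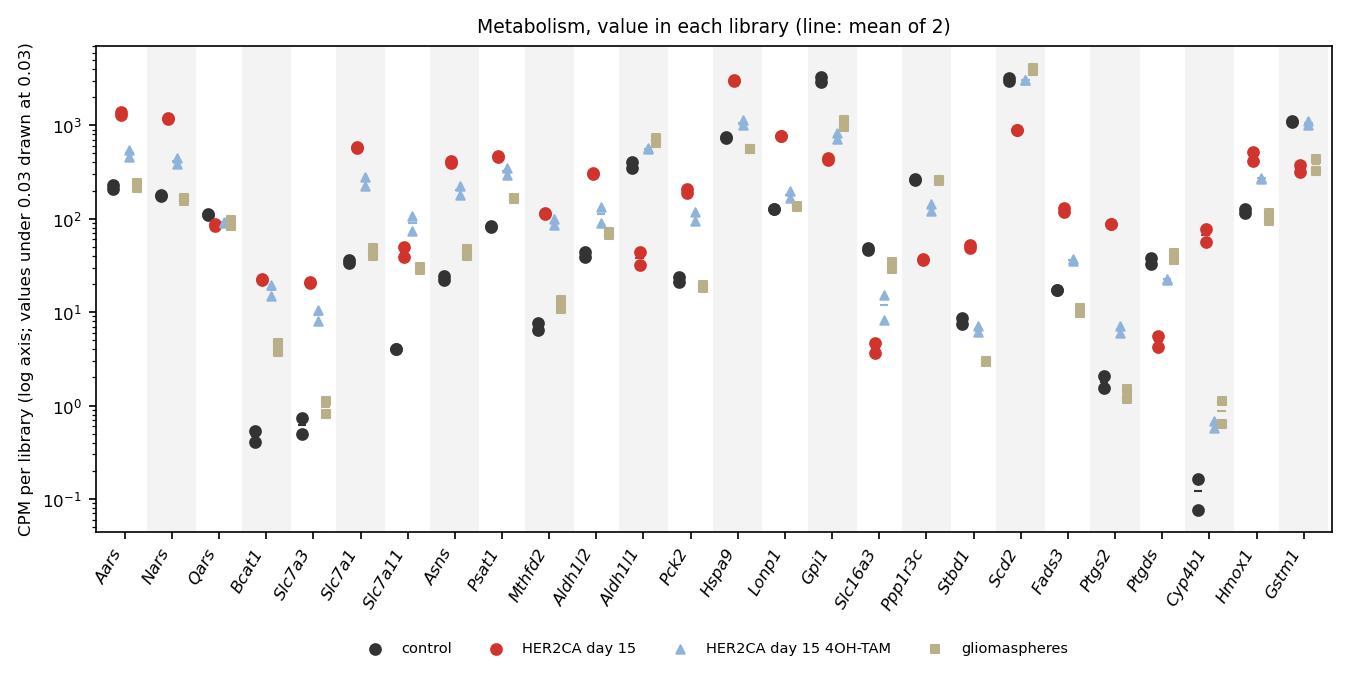
Level of 26 metabolic genes in each library, in CPM on a log axis, with lines at the mean of the 2 libraries. The tRNA synthetases Aars and Nars lie between 1154 and 1395 CPM in HER2CA day 15 against 176 to 228 CPM in controls, Aldh1l2 lies above and Aldh1l1 below its control points, and the glucose genes Gpi1 to Ppp1r3c lie below their controls.

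Some of the largest changes fell outside these groups. The corneodesmosin gene Cdsn, known from skin, was at 8.22 and 8.61 CPM in controls and 726 and 651 CPM in HER2CA day 15 (6.35), and Msn, which encodes the membrane-cytoskeleton linker moesin, at 1410 and 1403 CPM in controls and 2804 and 2556 CPM in HER2CA day 15 (0.93, edgeR adjusted p = 6.38e-08). The RNA helicase Ddx5 rose from 722 and 671 CPM to 1864 and 1828 CPM (1.41). The sodium pump subunit Atp1b2 fell from 2838 and 3241 CPM to 731 and 813 CPM (−1.98), the tetraspanin Cd81 from 2621 and 2652 CPM to 730.2 and 680.5 CPM (−1.90) and Cd109, a TGF-beta co-receptor, from 2861 and 2747 CPM to 558 and 604 CPM (−2.27). Padi2, a peptidylarginine deiminase, was at 267 and 337 CPM in controls and 4.26 and 4.07 CPM in HER2CA day 15. Pvalb, a calcium buffer of interneurons, fell from 14.9 and 15.98 CPM to 0.596 and 0.517 CPM (−4.80), and the inositol phosphate kinase Ip6k3 from 13.98 and 14.6 CPM to 0.596 and 0.276 CPM (−5.09).

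For a few of these genes the levels in the other 2 groups of the series are set beside HER2CA day 15. The libraries labelled 4OH-TAM came from HER2CA cells with the same constructs and doxycycline that also had 1 µM 4OH-TAM for 15 days, meant to delete Yap1 and Taz. The gliomaspheres were HER2CA cells grown in suspension in the same medium with doxycycline and DMSO and harvested after 3 weeks. The tests come from the same fit and share the HER2CA day 15 libraries. Of all genes 80.5% differed between HER2CA day 15 and the libraries labelled 4OH-TAM. Gliomasphere levels are given with no test, since replicate B stood apart in its share of ribosomal RNA. Sp8 was at 2.41 and 2.87 CPM in the 4OH-TAM libraries, below HER2CA day 15 (log2 difference 5, edgeR adjusted p = 2.26e-13), and at 3.14 and 2.73 CPM in gliomaspheres. Cyp4b1 was at 0.575 and 0.689 CPM in the 4OH-TAM libraries (6.71, edgeR adjusted p = 1.42e-12) and at 0.629 and 1.11 CPM in gliomaspheres. Klf4 was at 34.7 and 39.5 CPM (2.54, edgeR adjusted p = 1.71e-12) and 11.4 and 10.3 CPM, and Atf4 at 344 and 361 CPM (1.19, edgeR adjusted p = 4.82e-09) and 105 and 91.96 CPM. In these 4 genes every library of both other groups lay below both HER2CA day 15 libraries.

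Other raised genes gave no such difference from the 4OH-TAM libraries or were higher there. Grem1 was at 17.4 and 17.1 CPM in the 4OH-TAM libraries, a difference that did not pass the test (log2 difference 0.18, edgeR adjusted p = 0.171), and at 19.9 and 16.2 CPM in gliomaspheres. Slc7a11 was at 73.99 and 106 CPM in the 4OH-TAM libraries, higher than in HER2CA day 15 (−1.03, edgeR adjusted p = 5.82e-06), and at 28.1 and 30.2 CPM in gliomaspheres. Among the lowered genes Fgf1 was at 59.6 and 60.1 CPM in the 4OH-TAM libraries and 142 and 133.9 CPM in gliomaspheres (−6.80, edgeR adjusted p = 2e-13, for HER2CA day 15 minus 4OH-TAM), and A2m at 75.9 and 83.5 CPM and 304 and 327 CPM (−6.80, 2.26e-13).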

How the data were processed

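PolyA RNA was sequenced from stranded libraries, per the labels' protocols. The authors deposited 1 table of raw counts, whole numbers for each gene symbol. Per the submitters' processing notes, which give no roles, FastQC, featureCounts and STAR 2.5.3a were used with builds GRCm38 and mm10. How strand was set in counting, and on which annotation, is not stated. Exons of 56 named genes overlap a gene on the opposite strand, Yap1, Erbb2, Ostn, Kcnt2, Nrg1, Tnc and Gapdh among them, and reads of such pairs may not be separable. Exons of 4 overlap a gene on the same strand.

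Columns were matched to samples by their descriptions in the labels, and 0 columns were left unmatched. In edgeR 4.0.16 (R 4.3.3), the counts of all 8 libraries were fitted with group means, TMM factors and the filterByExpr filter, with 4 degrees of freedom left and a common BCV, the biological coefficient of variation, of 0.0685. Contrasts were tested by quasi-likelihood (glmQLFTest) with Benjamini-Hochberg adjustment over 13607 genes at 0.05. SE was taken from the log2 fold change and the square root of its F value. Replicates differed by more than sampling noise (chi-square per degree of freedom 12.6 in controls and 5.61 in HER2CA day 15). A group at 0 counts was set to 3 counts for a lower bound, and intervals of ratios of counts are 95% exact and cover counting error only.

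The comparison, the 87 gene lists and the naming rule were chosen with earlier results of these data known. The rule takes Yap1, Wwtr1 and Erbb2, the 12 largest relative changes in each direction with at least 5 CPM, the 10 largest in CPM, and from each list the 5 largest changes in each direction, the 3 highest members and every member of lists with 15 or fewer. The largest relative changes, over all genes and in each list, were taken among called genes whose groups did not overlap. The rule passes over ribosomal RNA and clone-named models. Of the 914 genes it takes, some are named. Cebpg, Cox6a2, Eif2ak1, Eif2ak4, Erbb3, Erbb4, Gars, Phgdh and Pycr1 lie outside it, as do Rn45s and Dcx, and were chosen after their values were seen.

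Positions come from GENCODE M21 on GRCm38, and Ctgf and Ddit3 had no single position there. Promoter sequences are RefSeq's for GRCm38.p6. Alternatives were other scaling factors, 2 filters, testing against 1.5-fold (glmTreat), DESeq2 1.42.0, fewer libraries in the fit, the replicate letter as a block and each library left out. The model was tested on simulated data.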

Additional observations from a re-analysis of the deposited data

How the results depend on the processing

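Of 10308 genes called, 5082 were higher and 5226 lower. With no scaling factors 5890 genes were called, 2304 of them higher, and the counts were 87 transcription factors higher and 151 lower, 44 receptors higher, and 173 metabolic genes higher and 193 lower. In the test against a 1.5-fold change 5456 genes were called, 2302 higher and 3154 lower, with 86 transcription factors higher and 129 lower, 40 receptors higher, and 170 metabolic genes higher and 166 lower. The TMM factors were 1.027 and 1.027 in HER2CA day 15 and 1.062 and 1.066 in controls. They were 1.118 and 1.113 in the 4OH-TAM libraries and 1.057 and 0.637 in gliomaspheres, replicates A and B. The median log2 fold change over all genes was −0.02 with TMM factors and −0.07 with no scaling factors. Why fewer genes were called with no scaling factors was not tested, while the 1.5-fold test asks for more by its construction. With each library of the 2 groups left out in turn, 9494 to 9611 genes were called, 4638 to 4758 higher and 4821 to 4896 lower. The ranges were 179 to 192 and 230 to 236 for transcription factors, 62 to 73 and 197 to 203 for secreted factors, 65 to 71 and 280 to 292 for receptors, and 327 to 349 and 272 to 295 for metabolic genes, higher and lower.

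The deviations of A and B in the 2 groups correlated at 0.0554 across genes. In both groups the ratio of A to B fell with transcript GC (Spearman −0.312 in controls and −0.222 in HER2CA day 15). Whether the replicate letters share more than a label was not tested. With the letter as a replicate block 10300 genes were called, 5083 higher and 5217 lower, and none of the 215 named genes changed its call. DESeq2 called 9718 genes and a filter of 5 CPM 9298 of 11806. A set of 3 genes that were not called turned sign when a library was left out: Egf ranged from −0.23 to 0.21, Eif2ak4 from −0.14 to 0.01 and Cdkn1a from −0.08 to 0.01. No named gene that was called changed its sign under any alternative run.

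With 2 libraries a group, 4 residual degrees of freedom and one group for each condition, the results compare these cultures. Depth of 21253566 counts or more left genes under 1 CPM, such as Ccl2 and Ccl7, with few counts.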

Other observations

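Of 18 measured G1 cyclins, CDKs and inhibitors 11 were lower and 2 higher (median −0.63). The G1 cyclin Ccnd3 fell from 74.7 and 75.9 CPM to 25.99 and 28.4 CPM (−1.47), and Cdkn2a, which encodes the inhibitors p16 and p19ARF, from 75.1 and 80.2 CPM to 37.4 and 39.95 CPM (−1.004). Cdkn1a, the inhibitor p21, was at 1434 and 1374 CPM in controls and 1331 and 1415 CPM in HER2CA day 15 (−0.03, edgeR adjusted p = 0.738). Replication and mitosis genes were higher in 10 and lower in 8 of 30, an order that turned with upper-quartile factors (9 and 10) and with no scaling factors (6 and 7). The replicative helicase subunits Mcm2 and Mcm7 rose from 15.97 and 17.4 CPM to 67.4 and 63.7 CPM (1.97) and from 23.9 and 25.8 CPM to 68.7 and 59.2 CPM (1.36), while the mitotic kinase Cdk1 fell from 10.6 and 9.598 CPM to 4.996 and 4.001 CPM (−1.18).

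Lysosomal genes were lower in 25 of 50 and higher in 15. The protease gene Ctsl rose from 502 and 519.6 CPM to 1355 and 1284 CPM (1.37) and the cholesterol exporter Npc1 from 168 and 161 CPM to 418 and 385 CPM (1.29), whereas the hydrolase Gusb fell from 59.1 and 64.8 CPM to 20.5 and 19.7 CPM (−1.63). Neurotransmitter and purine receptor channels were lower in 20 of 36 and higher in 7. The glutamate receptor subunit Gria4 fell from 9.64 and 9.35 CPM to 1.15 and 1.48 CPM (−2.83). The libraries of the groups did not overlap for any gene said here to have risen or fallen, and the largest edgeR adjusted p among them was that of Cdk1, 1.29e-06.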
